A study of Mus musculus with 10 samples.

Results

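The genes described here carry out MHC class I antigen presentation: the heavy chain genes H2-K1 and H2-D1, the light chain gene B2m, the peptide transporter genes Tap1 and Tap2, the loading factor gene Tapbp, the inducible proteasome subunit genes Psmb8, Psmb9 and Psmb10, and the regulator gene Nlrc5. They are the rows whose Ensembl identifiers map to these 10 symbols in GENCODE M21, 10 of 45786 genes in the deposited tables, and all 10 were among the 15625 genes tested. Whole-lung cell suspensions of C57BL/6J mice, an inbred strain, were profiled by RNA sequencing at 24 hours and at 1, 4, 12 and 32 weeks. Irradiated mice had received 12.5 Gy of γ-rays to the whole thorax, and age-matched controls 0 Gy. Each time had 1 irradiated and 1 control pool, each of RNA from 3 mice, so there were 5 pools a treatment and no replicate pool at a time. The study followed the onset and course of radiation fibrosis in lung, and the labels give no age for the mice.

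Class I molecules display peptides from inside a cell to CD8+ T cells, and nearly all nucleated cells make them. The proteasome cuts proteins into peptides, the Tap1 and Tap2 transporter carries these into the endoplasmic reticulum, and tapasin, the product of Tapbp, helps to load them on a heavy chain paired with β2-microglobulin, the product of B2m. Interferons are known to induce this set of genes, with Nlrc5 as a transcriptional activator, and to exchange 3 catalytic proteasome subunits for the products of Psmb8, Psmb9 and Psmb10. C57BL/6 mice carry the b haplotype, whose classical heavy chains come from H2-K1 and H2-D1.

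On GRCm38, 7 members lie on chromosome 17, in or near the major histocompatibility complex. H2-K1 (ENSMUSG00000061232, chromosome 17, 33996017 to 34000347, minus strand) and H2-D1 (ENSMUSG00000073411, chromosome 17, 35262730 to 35267499, plus strand) share stretches of identical sequence. Of the 50-base windows in their annotated transcripts, 9.63% for H2-K1 and 12.8% for H2-D1 also occur in another gene's transcripts, so their counts are uncertain to that extent. Tapbp lies at 33915899 to 33929292 on that chromosome, Psmb9 at 34181987 to 34187764 on the minus strand, Tap1 at 34187553 to 34197225, Psmb8 at 34197721 to 34201454 and Tap2 at 34203527 to 34216321. B2m (ENSMUSG00000060802, chromosome 2, 122147686 to 122153083) lies apart from them, as do Psmb10 (ENSMUSG00000031897, chromosome 8, 105935735 to 105938444) and Nlrc5 (ENSMUSG00000074151, chromosome 8, 94434356 to 94527272). Each of these 3 overlaps a gene on the opposite strand, as do Tap1, Tap2, Tapbp, Psmb8 and Psmb9, and the library kit does not mark strand, so fragments of overlapping stretches cannot be told apart. B2m lies wholly inside the span of Patl2.

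The promoters are shown because 2 pairs of members share promoter sequence, and the data below give how far each pair moved together. RefSeq windows of 250 bases before to 50 after the start site (GRCm38.p6) matched 8 of the 10 members, all but Tap2 and Nlrc5. The windows of H2-K1 (chr17:34000298-34000597, minus strand) and H2-D1 (chr17:35262844-35263143, plus strand) are followed by those of B2m (chr2:122147437-122147736, plus strand) and Tap1 (chr17:34187306-34187605, plus strand), each 5′ to 3′, with motif matches in capitals.
H2-K1: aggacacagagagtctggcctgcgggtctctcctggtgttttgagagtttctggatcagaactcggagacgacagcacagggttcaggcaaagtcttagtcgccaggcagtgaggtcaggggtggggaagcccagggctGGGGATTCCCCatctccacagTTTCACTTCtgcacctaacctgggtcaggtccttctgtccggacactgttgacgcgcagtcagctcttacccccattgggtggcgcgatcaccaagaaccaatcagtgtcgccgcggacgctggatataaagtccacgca
H2-D1: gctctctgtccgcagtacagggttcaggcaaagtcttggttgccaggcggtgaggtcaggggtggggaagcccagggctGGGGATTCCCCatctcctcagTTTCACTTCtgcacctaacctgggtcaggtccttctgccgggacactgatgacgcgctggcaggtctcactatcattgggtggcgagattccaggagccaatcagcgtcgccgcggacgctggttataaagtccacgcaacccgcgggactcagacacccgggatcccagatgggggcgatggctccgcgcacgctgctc
B2m: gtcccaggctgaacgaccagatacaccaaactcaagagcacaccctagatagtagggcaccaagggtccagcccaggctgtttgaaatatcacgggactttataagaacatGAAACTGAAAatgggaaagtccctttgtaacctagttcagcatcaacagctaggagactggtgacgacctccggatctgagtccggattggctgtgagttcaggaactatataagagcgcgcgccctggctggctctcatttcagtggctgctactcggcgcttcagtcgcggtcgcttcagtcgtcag
Tap1: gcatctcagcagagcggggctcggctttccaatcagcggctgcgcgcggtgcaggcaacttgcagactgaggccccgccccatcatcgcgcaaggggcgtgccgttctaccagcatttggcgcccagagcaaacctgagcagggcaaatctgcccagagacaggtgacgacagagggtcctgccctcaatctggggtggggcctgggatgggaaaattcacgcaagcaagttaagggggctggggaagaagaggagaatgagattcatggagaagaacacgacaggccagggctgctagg
Motifs were searched on both strands. The core of an interferon-stimulated response element was taken as GAAA repeated after any 2 letters, a gamma-activated site as TTCNNNGAA, and a kappaB-type site as GGG and TCCC with any 3 letters between them. A shorter interferon regulatory factor spelling, GAANNGAAA, was added after the windows had been read. The H2-K1 and H2-D1 windows both hold the kappaB-type match GGGGATTCCC, which overlaps another match, GGGATTCCCC, by 9 letters, and then TTTCACTTC, a match to the added spelling on the opposite strand. Over their alignment they are identical at 211 of 239 aligned bases, with 1 unbroken identical run of 47. B2m holds the response element core GAAACTGAAA. Psmb8 holds the gamma-activated spelling TTCCCAGAA. Matches to the response element core, the gamma-activated spelling, the kappaB-type spelling and GAANNGAAA occur in 3.43%, 8.29%, 5.56% and 7.52% of all 32817 windows. Tap1 and Psmb9 are read in opposite directions from start sites 226 bases apart, and their windows share 275 bases. These 2 windows, and those of Tapbp and Psmb10, hold none of the 4 spellings, which says only that those letters are not in these windows.

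Deposited totals were 9983710 to 13509769 expected counts a library. Members had 929 to 77860 fragments a library, except Nlrc5 with 168 to 455. Markers of 14 cell types, among them the alveolar type 2 list at 23224 to 41747 summed CPM in controls, had no marker at 0 in any pool apart from 3 of 5 thymocyte markers. CPM here are counts relative to the TMM-scaled library size, and FPKM are the authors' values per gene length and library total. In bulk samples, fewer cells of a type and less RNA per cell cannot be told apart.

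In unirradiated lung the heavy and light chain genes were among the most abundant transcripts. By FPKM, which allows genes to be compared, H2-D1 ranged from 1135 to 1669 over the 5 controls and B2m from 856 to 1148, which overlap. H2-K1, at 524 to 609.6, lay below both. Within each control H2-D1 ranked 31 to 46, B2m 51 to 67 and H2-K1 95 to 119 among the 45786 genes. Psmb8 (188 to 232) and Tapbp (166 to 259) came next and overlapped. Psmb10 (79.4 to 116) overlapped Psmb9 (70.7 to 90.8), and Tap2 (42.4 to 64.9) overlapped Tap1 (32.0 to 46.0). Nlrc5 was lowest at 0.935 to 1.79 FPKM. The members varied little between controls of different times. As a share of the control mean in CPM, the SD was 3.95% for H2-K1, 6.69% for Psmb9 and 7.91% for Psmb8, and 10.1% to 16.2% for the others except Nlrc5 at 32.9%.

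Over the 32 weeks no member had a slope along log2 days that passed the test in the controls. Nlrc5 stood apart in size, at 11.1, 19.1, 13.0, 23.6 and 24.3 CPM in time order. It was lower in the 24-hour and 4-week controls than in the other 3, which is an order by time only in part. Its slope was 0.13 ± 0.055 SE in log2 CPM per doubling of time (edgeR adjusted p = 0.998, unadjusted p = 0.0353). The slopes of the other 9 lay between −0.043 (Psmb10) and 0.030 (B2m). By the same test 0% of all genes rose and 0% fell, against 2.71% higher and 1.6% lower at an unadjusted p under 0.05.

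Over the 5 times as a whole, fitted changes after irradiation ran from −0.18 in log2 for Psmb9 to 0.15 for Tapbp. No member passed the test with time as a block (0 of 10 by edgeR, by DESeq2 and by limma on FPKM), and none had an unadjusted p under 0.05. Of all genes tested, 0% rose and 0% fell with edgeR, and with DESeq2 1.83% passed, over the genes to which it gives an adjusted p. With edgeR 6.62% were higher and 4.47% lower at an unadjusted p under 0.05. The median fitted log2 change was 0.065 over the members and 0.015 over all tested genes. No member lay on 1 side of its matched control in all 5 pairs, against 6.75% of all genes higher and 5.73% lower in 5 of 5. A test over the times counts an effect that differs between times as spread.

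**Figure D1:**
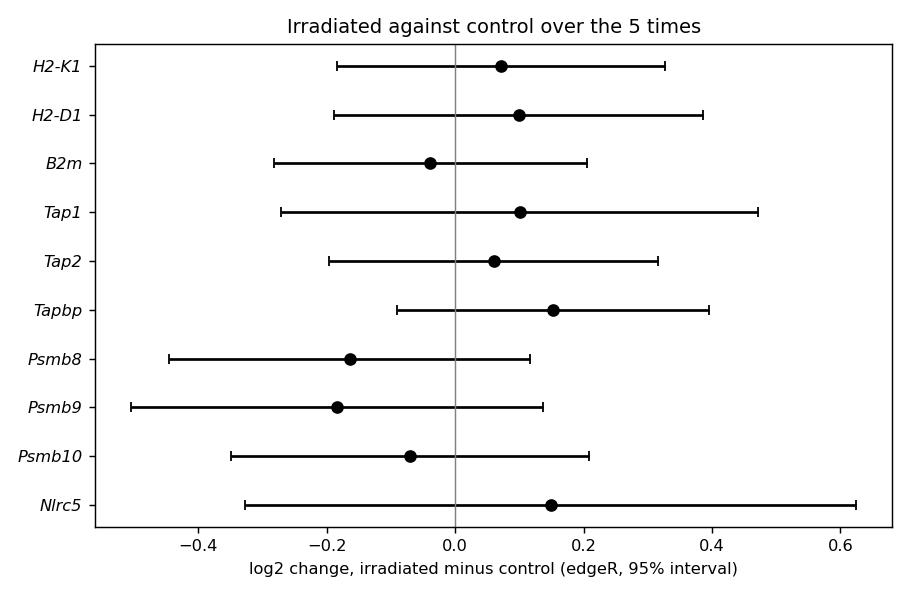
Fitted log2 change of each of the 10 genes, irradiated minus control, over the 5 times with time as a block, with 95% intervals on the horizontal axis. Every interval includes 0, and the intervals run from −0.50 (Psmb9) to 0.62 (Nlrc5).

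Among the presenting molecules, H2-K1 was at 1548, 1591, 1450.3, 1552 and 1608 CPM in the controls in time order and at 1550.3, 1329.9, 1788, 1823 and 1697 CPM in the irradiated pools. The irradiated pool was below every control at 1 week and above every control at 4, 12 and 32 weeks, while the 24-hour pool was among the controls. Its means were 1550.0 ± 61.2 CPM in control and 1638 ± 202 CPM in irradiated pools (SD, n = 5 each) (log2 change 0.071 ± 0.11 SE, 95% interval −0.18 to 0.33, edgeR adjusted p = 0.848). H2-D1 was at 3761, 4307, 3316, 3767 and 3477 CPM in controls and 3823, 3483, 4267, 4157 and 4187 CPM in irradiated pools. All 5 irradiated values of H2-D1 lay within the range of the controls (log2 change 0.10 ± 0.13 SE, 95% interval −0.19 to 0.39, edgeR adjusted p = 0.806). B2m, at 1408, 1413, 1383, 1805 and 1519 CPM in controls, was at 1599.8, 1137, 1458, 1628 and 1527 CPM after irradiation. Its lowest value of the 10 was that of the irradiated pool at 1 week, and the other 4 irradiated pools lay among the controls (log2 change −0.039 ± 0.11 SE, 95% interval −0.28 to 0.21, edgeR adjusted p = 0.929). The intervals put any change of the heavy and light chain genes common to the 5 times between 0.822 and 1.31 times control.

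**Figure D2:**
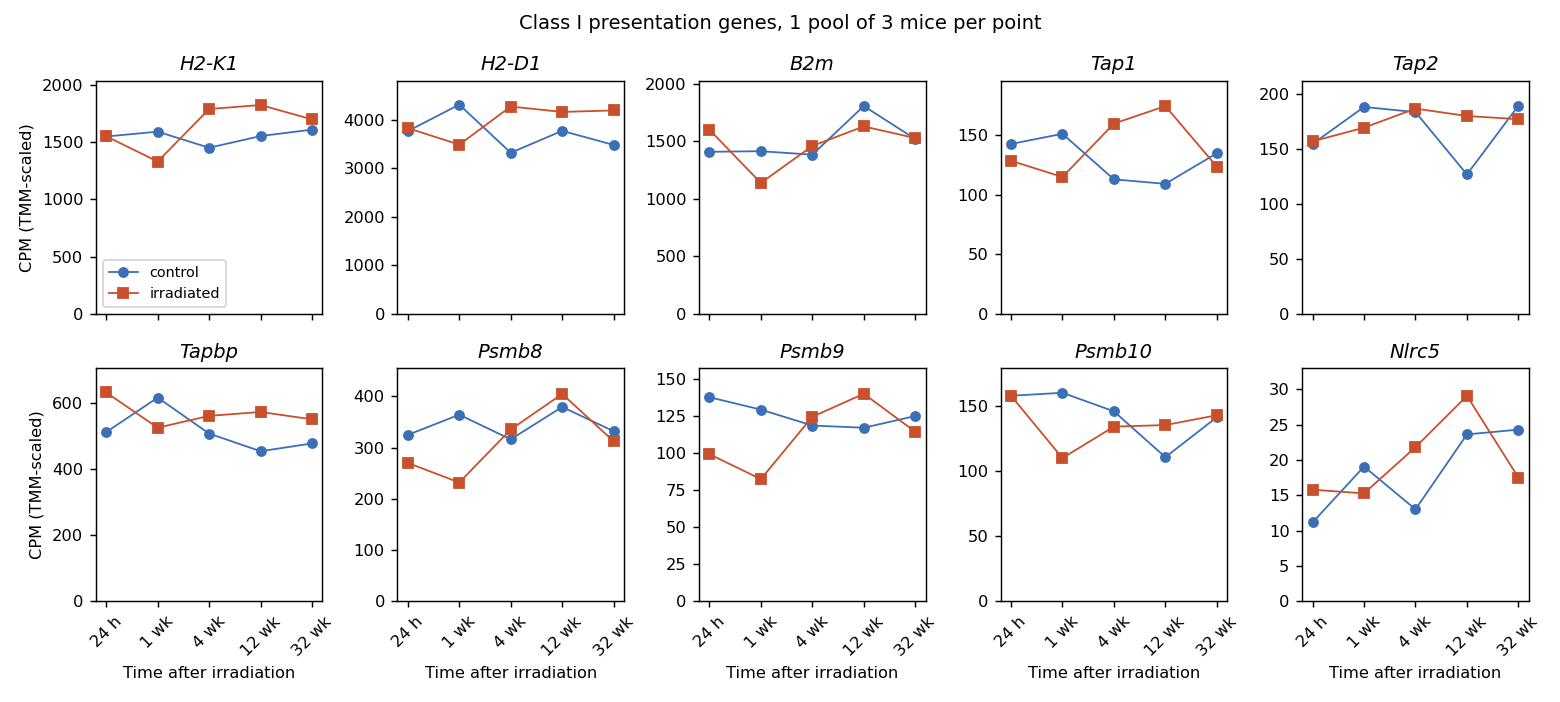
TMM-scaled CPM of the 10 genes (vertical axes, each from 0) in control and irradiated pools at 5 times, 1 pool of 3 mice per point. Lines of the treatments cross in every panel, and the irradiated points of Psmb8 and Psmb9 are lowest at 1 week, at 232 and 82.4 CPM.

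The transporter genes Tap1 and Tap2 differed in how far they spread. Tap1 was at 143, 151, 113, 109 and 135 CPM in controls and 129, 115, 159.8, 175 and 124 CPM in irradiated pools. The irradiated pools of 4 and 12 weeks were above every control, and the other 3 were among the controls. Against the matched control Tap1 stood at 0.901, 0.761, 1.41, 1.60 and 0.916 times in time order (log2 change 0.10 ± 0.16 SE, 95% interval −0.27 to 0.47, edgeR adjusted p = 0.856). Tap2, its partner in the transporter, was at 155, 188, 184, 127 and 189 CPM in controls and 157, 169, 187, 180.0 and 177 CPM after irradiation. All irradiated values of Tap2 lay inside the range of the controls, which was set at its lower end by the 12-week control, the shallowest library (log2 change 0.060 ± 0.11 SE, 95% interval −0.20 to 0.32, edgeR adjusted p = 0.883). Tapbp, the tapasin gene, was at 511, 615, 507, 453 and 477 CPM in controls and 631, 524, 560.1, 572 and 549.6 CPM in irradiated pools. It was above every control at 24 hours only and higher than its matched control in 4 of 5 pairs (log2 change 0.15 ± 0.11 SE, 95% interval −0.091 to 0.40, edgeR adjusted p = 0.632).

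Among the inducible proteasome genes, Psmb8 and Psmb9 lay below their controls most often. Psmb8 was at 325, 364, 316, 379 and 332 CPM in controls and 270.1, 232, 335, 405 and 312 CPM in irradiated pools. It lay below all controls at 24 hours, 1 week and 32 weeks and above all of them at 12 weeks. Psmb9 was at 138, 129, 119, 117 and 125 CPM in controls and 99.2, 82.4, 124, 140.0 and 114 CPM after irradiation, on the same side of the controls at the same 4 times. Over the 5 times neither passed (Psmb8 log2 change −0.16 ± 0.12 SE, edgeR adjusted p = 0.656, and Psmb9 log2 change −0.18 ± 0.14 SE, edgeR adjusted p = 0.66). Both lay lower than their matched control in the same 3 of 5 pairs. Leaving out 1 pair in turn gave −0.24 to −0.044 for Psmb8 and −0.30 to −0.068 for Psmb9, nearest to 0 without the pair of 1 week. Psmb10 was at 158, 160.0, 146, 111 and 141 CPM in controls and 158, 109.9, 134, 135 and 143 CPM in irradiated pools. It left the range of the controls at 1 week alone, and by little (log2 change −0.071 ± 0.12 SE, 95% interval −0.35 to 0.21, edgeR adjusted p = 0.869). The regulator gene Nlrc5, with the control values given earlier, was at 15.8, 15.3, 21.8, 29.1 and 17.5 CPM in irradiated pools, above its control range at 12 weeks alone (log2 change 0.15 ± 0.21 SE, 95% interval −0.33 to 0.62, edgeR adjusted p = 0.823). Its interval is the widest of the 10.

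At 24 hours most of the set lay where the controls lay, in a pool in which 4 chosen interferon-stimulated genes were higher than in the matched control. H2-K1, H2-D1, B2m, Tap1, Tap2, Psmb10 and Nlrc5 were inside the range of the 5 controls at that time, Tapbp was above it, and Psmb8 and Psmb9 were below it. None passed by edgeR, none had an unadjusted p under 0.05, and DESeq2 called 0 of 10 beside 3.85% of all genes. With edgeR 0.608% rose and 0.442% of all genes fell, with 5.65% higher and 6.3% lower at an unadjusted p under 0.05, and 22.1% lay above all 5 controls and 21.2% below them. Of the members 7 of 10 lay above the matched control, beside 49.6% of all genes. Their median matched log2 fold was 0.012, beside −0.0041 for all genes. Among the 7, H2-K1 and Psmb10 stood at 1.00 times the matched control. Against all 5 controls the fitted change was above 0 for 4 of 10. In the same pool Ifit3, Ifit1, Irf7 and Oasl2, all interferon-stimulated, stood at 8.68, 5.60, 5.43 and 5.37 times the matched control. These genes are examples chosen with earlier results of these data known, so their rise is not a separate result. The smallest p of the members were those of Psmb8 (log2 change −0.35 ± 0.17 SE, 95% interval −0.73 to 0.032, edgeR adjusted p = 0.467), Psmb9 (log2 change −0.34 ± 0.17 SE, 95% interval −0.72 to 0.033, edgeR adjusted p = 0.467) and Tapbp (log2 change 0.30 ± 0.19 SE, 95% interval −0.12 to 0.72, edgeR adjusted p = 0.605). For H2-K1 the test against the 5 controls gave a log2 change −0.0019 ± 0.17 SE, 95% interval −0.37 to 0.37, edgeR adjusted p = 0.999. For Tap1 it gave a log2 change −0.021 ± 0.21 SE, 95% interval −0.49 to 0.44, edgeR adjusted p = 0.986. The highest upper bound of the 10 intervals, that of Nlrc5, was 1.68 times the controls, and the lower bound of Irf7 was 3.42 times.

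**Figure D3:**
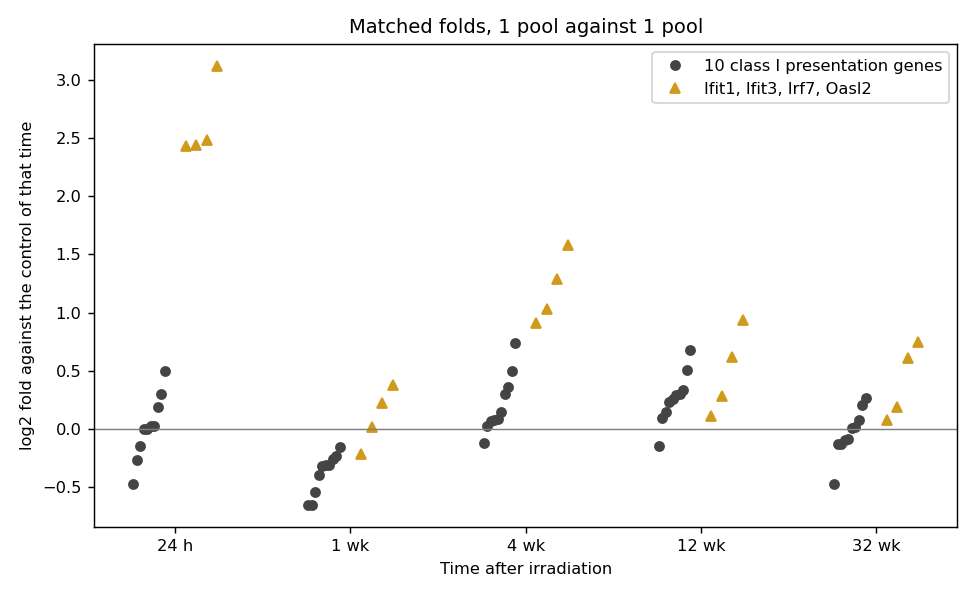
Log2 fold of each irradiated pool against the control of its time (vertical axis) for the 10 class I genes and for 4 interferon-stimulated genes, with points spread sideways by rank. At 24 hours the class I genes lie between −0.47 (Psmb9) and 0.50 (Nlrc5), and the 4 interferon-stimulated genes between 2.43 and 3.12.

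At 1 week the irradiated pool held the lowest of the 5 irradiated values for every member except Tap2, which was lowest at 24 hours. All 10 members lay below their matched control, against 52.6% of all tested genes above theirs, and the median matched log2 fold was −0.32 (all genes 0.029). That control had the highest value of the 5 for H2-D1, Tap1, Tapbp and Psmb10, so the matched folds of these 4 rest on a high control too. The low side was not particular to the members. Of 18 genes for constitutive proteasome subunits and the activator, 0 lay above the matched control at 1 week (median matched log2 fold −0.29). Of 9 genes for peptide loading and trimming, 7 lay above it (median 0.32). Against all 5 controls, H2-K1, B2m, Psmb8, Psmb9 and Psmb10 lay below every one of them, as did 18.8% of all genes, while no member and 22.6% of all genes lay above. The differences furthest from 0 were those of Psmb9 (log2 change −0.63 ± 0.17 SE, 95% interval −1.02 to −0.25, edgeR adjusted p = 0.287) and Psmb8 (log2 change −0.59 ± 0.17 SE, 95% interval −0.98 to −0.20, edgeR adjusted p = 0.328). Their unadjusted p were 0.00444 and 0.00691, the only 2 of the 10 under 0.05, which held on the lower side for 4.94% of all genes and on the higher side for 4.58%. B2m was at a lower level too (−0.43 ± 0.20 SE, edgeR adjusted p = 0.545), as were Psmb10 (−0.41 ± 0.22 SE, edgeR adjusted p = 0.616), Nlrc5 (−0.28 ± 0.43 SE, edgeR adjusted p = 0.896), H2-K1 (−0.25 ± 0.17 SE, edgeR adjusted p = 0.709), Tap1 (−0.20 ± 0.21 SE, edgeR adjusted p = 0.824) and H2-D1 (−0.12 ± 0.20 SE, edgeR adjusted p = 0.902), without passing. Tap2 and Tapbp were at their control mean, at 1.01 and 1.02 times. DESeq2 called 0 of 10 beside 2.27% of all genes. With edgeR, over all genes 0.0128% rose and 0% fell.

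Markers of lymphocytes and dendritic cells, which are rich in antigen-presenting molecules, were set beside the members. Over the 5 times 0 of the T cell, B cell and dendritic cell markers passed by edgeR. At an unadjusted p under 0.05, 8 of 10 T cell, 3 of 8 B cell and 1 of 7 dendritic cell markers were lower, beside 4.47% of all genes. The summed levels that follow were not tested. Summed B cell markers (8 genes) stood at 0.533, 0.513, 1.08, 0.982 and 0.923 times the matched control in time order, T cell markers (10 genes) at 0.507, 0.532, 0.728, 1.18 and 0.450 and dendritic cell markers (7 genes) at 0.587, 0.491, 1.30, 1.28 and 0.745. No marker of these 3 lists was at 0 in any pool. Their summed CPM in controls were 1099.9 to 1691 for B cells, 506 to 1021 for T cells and 315 to 516 for dendritic cells, and in irradiated pools 586 to 1662, 257 to 687 and 233 to 533. All 3 were lower than the matched control at 24 hours and 1 week, the times at which Psmb8 and Psmb9 were furthest below theirs, and again at 32 weeks. The lists did not follow the members at every time. T cell markers were below the matched control at 4 weeks, when Psmb8 stood at 1.06 times its own, and H2-K1 stood at 1.00 times at 24 hours. Thymocyte markers (5 genes) differed widely between controls, at 33.3, 12.7, 235, 34.4 and 259 summed CPM in time order. They stood at 0.0552, 0.211, 0.488, 3.28 and 0.128 times the matched control. The T cell sums were highest in the same 4-week and 32-week controls, at 944 and 1021 CPM. The part of thymocytes in the T cell values was not tested. NK cell markers (8 genes) stood at 0.942, 0.684, 1.06, 0.868 and 0.896 times. Monocyte and interstitial macrophage markers (9 genes) stood at 1.55, 1.03, 1.58, 1.32 and 1.43 times and alveolar type 2 markers (7 genes) at 1.36, 2.06, 1.59, 0.214 and 0.365 times. The part of these cells in the class I values was not tested.

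**Figure D4:**
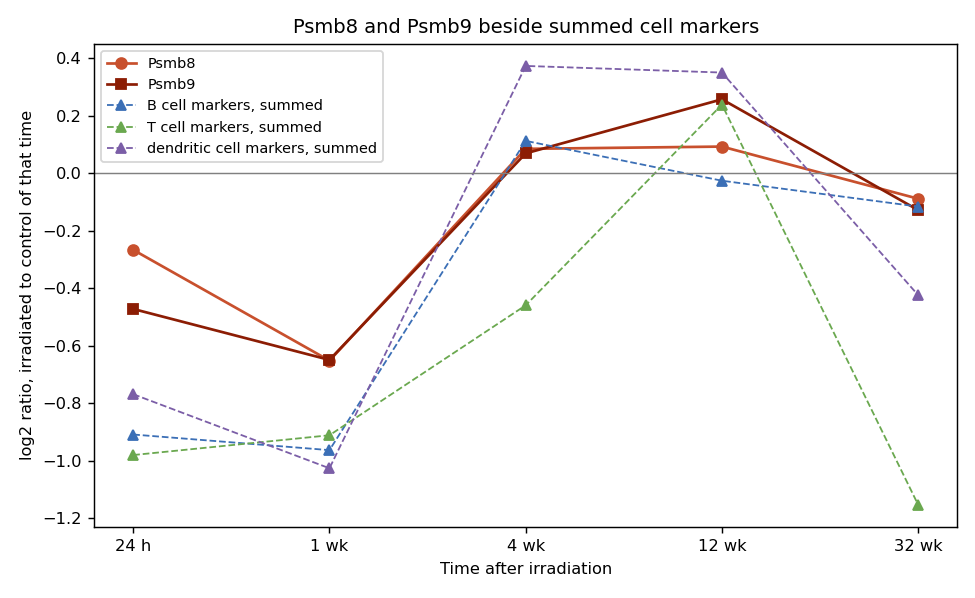
Log2 ratio of irradiated to control pool at each time for Psmb8 and Psmb9 and for the summed markers of B cells, T cells and dendritic cells. At 1 week all 5 series lie below 0, Psmb8 and Psmb9 at −0.65 and −0.65 and the dendritic cell markers at −1.03.

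At 4 and 12 weeks most members stood above their matched control, and H2-K1 and Tap1 above all controls. At 4 weeks H2-K1 (0.19 ± 0.16 SE, edgeR adjusted p = 0.92) and Tap1 (0.28 ± 0.20 SE, edgeR adjusted p = 0.879) were above every control and the other 8 were inside the range. Of the members 9 of 10 were above the matched control, Psmb10 being the exception, as were 53.2% of all genes. The 4-week control held the lowest value of the 5 controls for H2-K1, H2-D1, B2m and Psmb8, so these matched folds rest on a low control too. Against all 5 controls the fitted change was above 0 for 6 of 10. None passed by edgeR or DESeq2 and none had an unadjusted p under 0.05, which 3.88% of all genes had on the higher and 3.28% on the lower side. Of all genes 19.1% lay above, and 0.0064% rose and 0.0448% fell with edgeR, while DESeq2 called 0.882%. At 12 weeks H2-K1, Tap1, Psmb8, Psmb9 and Nlrc5 were above every control, as were 21.9% of all genes. Tap1 reached 175 CPM (log2 change 0.42 ± 0.20 SE, 95% interval −0.028 to 0.87, edgeR adjusted p = 0.494) and Nlrc5 29.1 CPM (log2 change 0.67 ± 0.39 SE, 95% interval −0.19 to 1.54, edgeR adjusted p = 0.559). Neither passed, none of the 10 had an unadjusted p under 0.05, and 0 of 10 passed by DESeq2, which called 1.72% of all genes, while 0% rose and 0% of them fell with edgeR, and 4.95% were higher and 5.73% lower at an unadjusted p under 0.05. Of the members 9 were above the matched control at 12 weeks, all but B2m, against 50% of all genes. The 12-week control held the lowest value of the 5 controls for Tap1, Tap2, Tapbp, Psmb9 and Psmb10. The median matched log2 fold was 0.27.

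At 32 weeks, the last time, members lay on both sides of the controls. H2-K1 was above every control at 1697 CPM (0.14 ± 0.16 SE, edgeR adjusted p = 0.737), Psmb8 and Psmb9 were below every control at 312 and 114 CPM (−0.13 ± 0.17 SE, edgeR adjusted p = 0.767, and −0.13 ± 0.16 SE, edgeR adjusted p = 0.769), and the other 7 were inside the range. Of all genes 25.5% lay above and 23.3% below all controls. Members above the matched control numbered 5 of 10, with a median log2 fold of −0.040 (all genes 0.025, 51.8% of them above 0). None passed by edgeR or DESeq2 and none had an unadjusted p under 0.05, at a time when 0.576% of all genes rose and 0.243% fell, and 9.66% were higher and 6.64% lower without adjustment. DESeq2 called 6.08% of all genes at that time. The sign of small matched folds depends on the scaling. On the authors' FPKM scale the median gene of this pair stood at a matched log2 fold of 0.32 and on library totals at −0.15, and at 4 and 12 weeks on FPKM at 0.22 and 0.14.

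A change of the irradiation effect along the time course was not called for any member either. Against log2 days the product term was furthest from 0 for Psmb9, at 0.085 ± 0.044 SE in log2 per doubling of time (edgeR adjusted p = 0.744, unadjusted p = 0.0931). It was above 0 for 8 of 10, all but B2m and Nlrc5. None had an unadjusted p under 0.05, beside 3.4% of all genes on the higher and 3.61% on the lower side, and 0% of all genes rose and 0% fell along time. A straight term in log2 days does not describe values that go down at 1 week, up at 12 weeks and back at 32 weeks, such as those of Psmb8 and Psmb9.

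Each inducible proteasome subunit takes the place of a constitutive one, and the ratio of the 2 genes by FPKM within a library is free of library scaling. Psmb8 to Psmb5 stood at 1.56, 2.05, 1.85, 2.37 and 2.08 in the controls and 1.72, 1.501, 2.10, 2.47 and 1.46 in the irradiated pools. It was higher than the matched control in 3 of 5 pairs, and the irradiated pools of 1 and 32 weeks lay below every control. The mean log2 difference was −0.11 ± 0.15 (SE, n = 5 pairs; exact paired permutation test, 2-sided p = 0.5, adjusted p = 0.5). Psmb9 to Psmb6 stood at 0.510, 0.505, 0.445, 0.543 and 0.539 in controls and 0.401, 0.391, 0.465, 0.553 and 0.384 after irradiation. The irradiated pools of 24 hours, 1 week and 32 weeks were below every control, and the mean log2 difference was −0.22 ± 0.11 (SE, n = 5 pairs; exact permutation p = 0.25, adjusted p = 0.375). Psmb10 to Psmb7 was at 1.35, 1.74, 1.43, 1.27 and 1.498 in controls and 1.47, 1.51, 1.53, 1.66 and 1.73 in irradiated pools, higher in 4 of 5 pairs (log2 difference 0.12 ± 0.10 SE, n = 5 pairs; exact permutation p = 0.25, adjusted p = 0.375). With 5 pairs the smallest p this test allows is 0.0625, so it could not pass. The constitutive genes moved too. In matched log2 fold of CPM, Psmb5 stood at −0.37, −0.17, −0.072, 0.11 and 0.45 in time order. Psmb6 stood at −0.18, −0.11, −0.072, 0.036 and 0.38, and Psmb7 at −0.11, −0.23, −0.26, −0.21 and −0.14. At 32 weeks Psmb8 and Psmb9 stood at −0.088 and −0.13, so the low ratios of that time rest more on the constitutive genes.

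**Figure D5:**
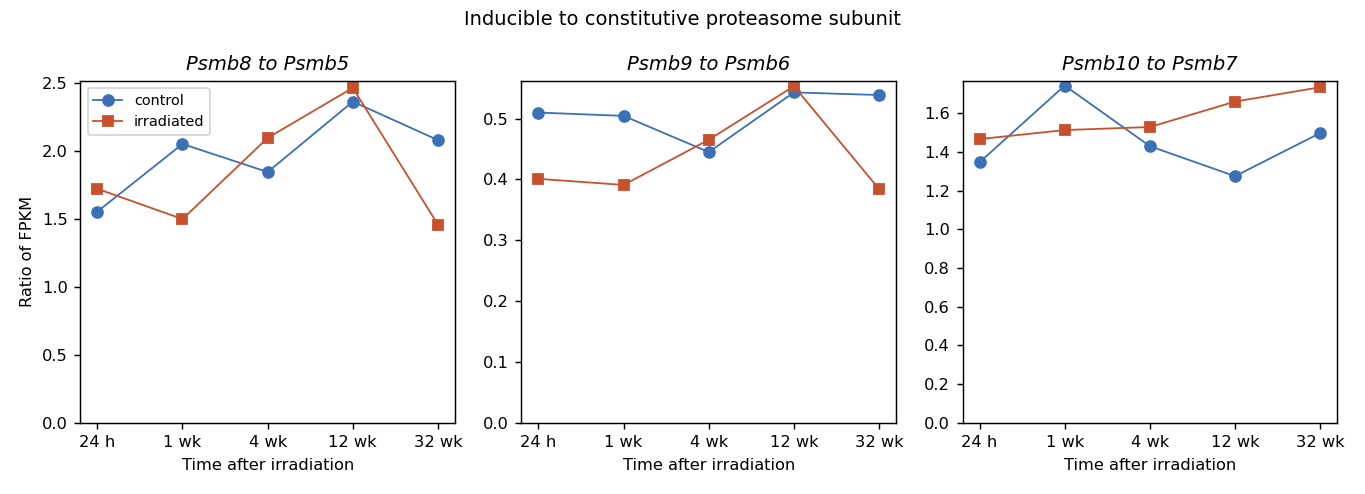
Ratio of FPKM of each inducible subunit gene to the constitutive gene whose place its product takes (vertical axes from 0), per pool and time. Psmb9 to Psmb6 in irradiated pools runs from 0.384 to 0.553, against 0.445 to 0.543 in controls.

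Other genes of the pathway were taken from 5 lists. Counts of passing genes in them are edgeR's. Of 15 tested genes for other heavy chains, including the H2-Q, H2-T and H2-M genes, 0 passed over the 5 times or at any time, and H2-T3 was too low to test. At 24 hours the smallest p in that list were those of H2-T24, at 21.4 CPM against 7.92, 8.35, 8.41, 7.98 and 12.0 CPM in the controls (1.26 ± 0.31 SE, edgeR adjusted p = 0.117), and H2-Q10 (1.22 ± 0.33 SE, edgeR adjusted p = 0.158). H2-T23, which encodes the Qa-1 molecule recognised by NK cell receptors, was at 419, 241, 305, 339 and 352 CPM in irradiated and 313, 303, 293, 290.5 and 314 CPM in control pools, with its 24-hour pool above all controls (0.47 ± 0.15 SE, edgeR adjusted p = 0.233). At 1 week the list's median matched log2 fold was −0.42, with Cd1d1, a lipid-presenting gene, lowest in p (−0.91 ± 0.25 SE, edgeR adjusted p = 0.312). At 32 weeks Mr1, whose product presents microbial metabolites, was at 74.0 CPM against 32.4, 29.8, 41.2, 47.0 and 36.7 CPM in controls (0.99 ± 0.24 SE, edgeR adjusted p = 0.0785). Several of these genes share sequence, from 3.17% of 50-base windows for H2-T24 to 34.5% for H2-T22, and their counts are uncertain.

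Of 9 tested genes for peptide loading and trimming, 0 passed in any comparison, and all 9 had a fitted change above 0 over the 5 times (median log2 0.28, all genes 0.015). Hspa5, a chaperone of the endoplasmic reticulum, was at 824, 891, 669, 1002 and 713 CPM in controls and 1018, 1274, 1168, 1442 and 1252 CPM in irradiated pools. Every irradiated value was above every control value, which held for 1.17% of all genes (log2 change 0.59 ± 0.11 SE, 95% interval 0.35 to 0.84, edgeR adjusted p = 0.15). Calr, the calreticulin gene of the loading complex, was higher in 5 of 5 pairs (0.34 ± 0.090 SE, edgeR adjusted p = 0.259). Of 18 genes for constitutive proteasome subunits and the activator, 0 passed, 2 had a change above 0 and the median was −0.13, with Psmb3 (−0.25 ± 0.095 SE, edgeR adjusted p = 0.397) and Pomp, the proteasome maturation factor gene (−0.23 ± 0.10 SE, edgeR adjusted p = 0.452), lowest in p.

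Of 21 regulators, 1 passed, at 24 hours, when Irf7 rose to 198 CPM against 36.4, 53.7, 45.5, 33.6 and 33.0 CPM in the controls (2.29 ± 0.23 SE, edgeR adjusted p = 0.00207). Irf7 is among the interferon-stimulated examples chosen with earlier results of these data known, so its rise is not a separate result. The class II activator gene Ciita was next in p, at 64.1, 81.6, 45.5, 56.3 and 70.2 CPM in controls and 26.8, 41.2, 62.8, 107 and 61.6 CPM in irradiated pools. It was below all controls at 24 hours and 1 week and above all at 12 weeks (−1.25 ± 0.31 SE, edgeR adjusted p = 0.117). Irf1, a known inducer of class I genes, lay at 107, 157, 122, 126 and 131 CPM in controls and 128, 134, 135, 126 and 97.4 CPM in irradiated pools. Of 6 tested receptor genes for class I molecules 0 passed. Cd8b1 of the CD8 co-receptor was at 64.3, 85.1, 175, 81.2 and 176 CPM in controls and 21.4, 33.0, 116, 97.8 and 49.2 CPM in irradiated pools (−1.02 ± 0.28 SE, edgeR adjusted p = 0.27), and the inhibitory receptor gene Pirb was higher in 5 of 5 pairs (0.48 ± 0.13 SE, edgeR adjusted p = 0.268), and at 32 weeks stood at 303 CPM (0.91 ± 0.21 SE, edgeR adjusted p = 0.0701). Cd8b1 was highest in the 4-week and 32-week controls, in which summed thymocyte markers were highest too, at 235 and 259 CPM. Nrdc of the loading list and Lilrb4a of the receptor list had no row under those symbols.

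Patterns over the 10 pools are given as a description, since pools of 1 time share the age of the mice and all share the scaling. Among the 45 pairs of members, Pearson's r of log2 CPM was above 0 in 38, with a median of 0.40, and above 0.8 in 1, that of Psmb8 and Psmb9 (r = 0.88). That pair stood at r = −0.27 within the 5 controls and 0.99 within the 5 irradiated pools. H2-K1 and H2-D1 with their shared promoter sequence stood at r = 0.75, and Tap1 and Psmb9 with their shared start region at r = 0.63. The counts within these pairs are not fully separate. H2-K1 and H2-D1 share transcript sequence, and Tap1 and Psmb9 overlap by 212 bases in libraries that do not mark strand. The part of shared promoters or shared fragments in these r was not tested. Some pairs without a shared promoter window, named here because their r over the 10 pools was above that of Tap1 and Psmb9, were H2-K1 with Tap1 (r = 0.75), Psmb8 (r = 0.69) and Psmb9 (r = 0.69), B2m with Psmb8 (r = 0.68) and H2-D1 with Tap1 (r = 0.66). Within controls and within irradiated pools, 5 each, Tap1 with Psmb9 stood at 0.87 and 0.89, the first being the highest r of the 45 pairs within controls. H2-K1 with H2-D1 stood at 0.56 and 0.97. For H2-K1 the values were 0.62 and 0.83 with Tap1, 0.47 and 0.94 with Psmb8 and 0.39 and 0.98 with Psmb9. B2m with Psmb8 stood at 0.72 and 0.72, and H2-D1 with Tap1 at 0.60 and 0.70. Among 11929 other genes of at least 5 CPM, the 4 most like Psmb8 were H2-Aa (r = 0.96, rho = 0.94), H2-Eb1 (r = 0.95, rho = 0.85), Cnr2 (r = 0.93, rho = 0.82) and Klhl6 (r = 0.93, rho = 0.90). The first and second of these encode class II chains. H2-Aa was at 2533, 2576, 1832, 2848 and 2419 CPM in controls and 1279.5, 1174, 2147, 3459 and 2139 CPM in irradiated pools, lowest at 24 hours and 1 week as was Psmb8. The 4 most like H2-K1 were Il4i1 (r = 0.94, rho = 0.84), Ttc30a1 (r = 0.90, rho = 0.87), Ly9 (r = 0.89, rho = 0.87) and Farsb (r = 0.87, rho = 0.95), those most like Tap1 were Alg8 (r = 0.92, rho = 0.96), Asb2 (r = 0.87, rho = 0.88), Gtf2e1 (r = 0.87, rho = 0.85) and Fem1c (r = 0.87, rho = 0.81), and those most like B2m were D10Wsu102e (r = 0.88, rho = 0.96), Crebrf (r = 0.87, rho = 0.90), Phf11c (r = 0.86, rho = 0.75) and Fgd6 (r = 0.85, rho = 0.68). Each of these is the top of 11929 values of r over 10 pools, and they say nothing of shared control.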

How the data were processed

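RNA of 10 pools was sequenced, and the submitters' processing notes name GRCm38.p4 as the build and, as tools, Cuffdiff, Cufflinks 2.0.2, STAR 2.4.2a and Trimmomatic 0.32. Which tool gave which value, and the annotation, is not given in the sources used here. Per gene the authors deposited expected counts and FPKM. Within a library, low values among the deposited expected counts fell on multiples of 1 step (0.576 to 1.38 across libraries), with 78.4% to 80.0% of them within 0.05 of a whole multiple, so a library scaling precedes them. Division by the step gave 8679270 to 17472191 fragments. Columns of no sample numbered 0.

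Expected counts were rounded, filtered with edgeR's filterByExpr (minimum count 10), scaled by TMM and tested with edgeR 4.0.16 quasi-likelihood F tests (2-sided, robust, R 4.3.3), with Benjamini-Hochberg adjustment over all 15625 genes and 0.05 as the limit on adjusted p. Over the 5 times the fit had time as a block (4 residual degrees of freedom), and each single time set 1 irradiated pool against the 5 controls, assuming that it varies like them. Those controls differ in age, so age and irradiation are not fully separated there. SE values are the change divided by the root of F, and intervals use edgeR's moderated degrees of freedom. Matched folds (prior count 2) set a single pool against a single pool, untested. Pools are single libraries, so p-values measure biological and technical spread together. The labels pair pools by time. Deviations of same-time pools from their group means correlated at 0.057 to 0.38 across genes. At 1 and 12 weeks the control stood at 0.075 and 0.057 with its own irradiated pool, and at up to 0.14 with that of another time. At 24 hours, 4 weeks and 32 weeks the same-time value was the higher. DESeq2 1.42.0, limma 3.58.1 on log2(FPKM + 1) and log2(FPKM + 0.1), other scalings, no filter and leaving out pools were alternatives. Methods were tested on simulated data with larger changes than those fitted for the members and a lower dispersion than that fitted over the 5 times. That test does not show the power for changes as small as those of the members. Sequences are from RefSeq (GRCm38.p6), and gene names and positions from GENCODE M21, which matched 45223 of 45786 identifiers. The rule for named genes takes all 10 members, in each other list the passing genes or the 2 of smallest p, and the 4 genes most like Tap1, H2-K1, B2m and Psmb8. Ifit1, Ifit3, Irf7 and Oasl2 were set as interferon-stimulated examples. H2-T23, Irf1 and Mr1's values by pool were picked after their values were seen. Some results are not reported here. Members and lists were chosen with earlier results of these data known.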

Additional observations from a re-analysis of the deposited data

How the results depend on the processing

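No member passed in any of the 8 comparisons, and this count of 0 of 10 was the same in each alternative run: DESeq2 size factors, library totals, no filter, counts divided by the step, limma on FPKM at both pseudocounts, DESeq2's Wald test (over the 5 times and at each time) and each control or time pair left out. Without the time block (no replicate block) 0 members passed too, with Psmb9 at log2 −0.16, Psmb8 at −0.14 and Tapbp at 0.15. The subunit ratios kept their sign in TMM CPM and with each pair left out, at log2 −0.19 to −0.015 for Psmb8 to Psmb5, −0.29 to −0.16 for Psmb9 to Psmb6 and 0.057 to 0.20 for Psmb10 to Psmb7. Members whose fitted change lay near 0 took either sign, none of them called, and the causes were not tested apart from the library shift given for FPKM and library totals. With limma on log2(FPKM + 1), log2 values of the opposite sign were over the 5 times B2m 0.10, Psmb10 0.044, and at 24 hours H2-K1 0.10, Tap1 0.11, and at 1 week Tap2 0.016, and at 4 weeks B2m 0.12, Psmb8 0.17, Psmb9 0.094, Psmb10 0.077, and at 12 weeks Psmb10 0.072, and at 32 weeks Tap1 0.33, Psmb8 0.064, Psmb9 0.018, Nlrc5 0.092, and for the change with time B2m 0.018, Nlrc5 0.0061, and for the control slope H2-K1 −0.013, Tap2 −0.023, Psmb8 −0.0091. With a pseudocount of 0.1 these rounded to the same values except at 1 week Tap2 0.017, and at 4 weeks Psmb9 0.095, Psmb10 0.078, and at 12 weeks Psmb10 0.073, and at 32 weeks Tap1 0.34, Nlrc5 0.16, and for the control slope Psmb8 −0.0092, and Nlrc5 kept its sign for the change with time. With library totals without TMM, log2 values of the opposite sign were over the 5 times Tap2 −0.0051, and at 24 hours H2-D1 −0.091, B2m −0.043, and at 1 week Tapbp −0.067, and at 4 weeks Psmb8 0.00094, Psmb9 0.021, and at 32 weeks B2m −0.073, Tap2 −0.030, Psmb10 −0.10. With DESeq2 size factors, log2 values of the opposite sign were at 32 weeks Psmb10 −0.0011. With no filter on low counts, log2 values of the opposite sign were at 32 weeks Psmb10 −0.024. With DESeq2 Wald test, log2 values of the opposite sign were at 32 weeks Psmb10 −0.0011. Leaving out 1 control or 1 pair in turn gave both signs, with lowest and highest log2 values, over the 5 times B2m −0.094 to 0.030, Psmb10 −0.17 to 0.046, Tap1 −0.050 to 0.22, Nlrc5 −0.00017 to 0.31, Tap2 −0.057 to 0.11, and at 24 hours Tap1 −0.081 to 0.033, H2-K1 −0.022 to 0.016, H2-D1 −0.00051 to 0.087, and at 1 week Tap2 −0.11 to 0.031, Tapbp −0.037 to 0.057, and at 4 weeks Psmb9 −0.050 to 0.010, B2m −0.085 to 0.014, and at 32 weeks B2m −0.00012 to 0.10, Tap2 −0.012 to 0.13, Psmb10 −0.079 to 0.041, Nlrc5 −0.19 to 0.080, and for the change with time B2m −0.032 to 0.048, Tapbp −0.0076 to 0.095, Tap2 −0.0100 to 0.068, Nlrc5 −0.10 to 0.016, and for the control slope Tap2 −0.029 to 0.037, Psmb8 −0.0091 to 0.022, H2-K1 −0.0058 to 0.0064. Over all genes DESeq2 called 258, 543, 252, 95, 238 and 857 over the 5 times and at each time in order, against 0, 164, 2, 8, 0 and 128 with edgeR. Every comparison has 1 pool a time and treatment, and Nlrc5 had the fewest fragments.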
